A study of Mus musculus with 12 samples.

Results

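The 41 genes described here encode the machinery of mitosis, and they were followed by RNA sequencing in a line of primary mouse mammary fibroblasts (MMF) after a DNA-damaging or an oxidative treatment. They were chosen by name, as cyclins and kinases of the G2/M transition and as components of the spindle, the kinetochore and cytokinesis, with the proliferation marker Mki67. The choice was made with earlier results of these data known. Counts of members set against all tested genes are therefore descriptions and not independent support. All 41 were found among the 55487 genes of the deposited expression table, and all 41 passed the filter on low values that left 13280 genes for testing. The question of the series is how normal fibroblasts differ from fibroblasts made senescent by doxorubicin or by hydrogen peroxide.

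Doxorubicin, a topoisomerase poison, was given at 100 nM for 24 h, and RNA was taken on day 7. Its vehicle group received water and was lysed on the same day. The peroxide group received 750 uM hydrogen peroxide for 2 h with 48 h of recovery, in 3 exposures, and was lysed on day 6, with a water vehicle group of its own. Each group had 3 libraries, 12 in all. Every culture descended from 1 line isolated from the mammary fat pad of a single healthy mouse of the B6 strain, with no engineered allele named in the labels. Both vehicle groups were passaged routinely to keep their density healthy, so treated and vehicle cells differed in passaging as well as in the agent. Whether the 3 libraries of a group came from separate cultures is not stated, and p-values therefore measure only the spread between libraries.

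Cells enter mitosis when cyclin B bound to the kinase Cdk1 becomes active. The spindle checkpoint then holds anaphase until kinetochores are attached to microtubules, and the ubiquitin ligase APC/C with its activator Cdc20 releases it. Most genes of this machinery are transcribed in G2 and mitosis, from promoters that often pair CCAAT boxes, bound by NF-Y, with a cell cycle genes homology region (CHR). The CHR is read by complexes built on MuvB, which repress as DREAM in resting cells and activate with B-Myb and Foxm1 in dividing cells. Senescence is defined by a lasting exit from division.

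The promoters of 6 members that lead their roles and hold a CHR hexamer are shown, since CHR and CCAAT motifs are what most members had in common beyond the roles by which they were chosen. Each window is read on the strand of the gene, 5′ to 3′, from 250 bases before to 50 bases after the annotated start, which is base 251, and is taken from RefSeq on GRCm38.p6. Capitals mark the CHR hexamer TTTGAA or TTCGAA and the CCAAT box, each searched on both strands, so that a CCAAT box on the opposite strand reads ATTGG.
Mki67, chr7:135716330-135716629, minus strand: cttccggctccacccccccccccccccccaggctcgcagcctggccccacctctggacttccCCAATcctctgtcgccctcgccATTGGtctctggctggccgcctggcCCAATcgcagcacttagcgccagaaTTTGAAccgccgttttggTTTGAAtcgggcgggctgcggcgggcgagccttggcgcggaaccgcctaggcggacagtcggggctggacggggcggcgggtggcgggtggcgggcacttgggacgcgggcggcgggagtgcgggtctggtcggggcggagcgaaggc
Cdk1, chr10:69352863-69353162, minus strand: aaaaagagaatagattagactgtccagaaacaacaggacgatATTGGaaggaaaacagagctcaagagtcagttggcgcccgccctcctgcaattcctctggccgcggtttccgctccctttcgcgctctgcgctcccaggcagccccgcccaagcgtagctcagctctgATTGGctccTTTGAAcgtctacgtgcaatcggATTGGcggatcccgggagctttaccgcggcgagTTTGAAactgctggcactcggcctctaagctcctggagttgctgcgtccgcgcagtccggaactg
Plk1, chr7:122159185-122159484, plus strand: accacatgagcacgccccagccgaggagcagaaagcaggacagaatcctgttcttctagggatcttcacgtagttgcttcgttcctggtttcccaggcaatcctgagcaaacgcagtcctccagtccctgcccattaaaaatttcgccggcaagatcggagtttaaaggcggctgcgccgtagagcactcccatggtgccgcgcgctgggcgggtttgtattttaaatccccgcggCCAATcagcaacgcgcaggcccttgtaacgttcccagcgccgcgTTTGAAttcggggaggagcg
Aurka, chr2:172370521-172370820, minus strand: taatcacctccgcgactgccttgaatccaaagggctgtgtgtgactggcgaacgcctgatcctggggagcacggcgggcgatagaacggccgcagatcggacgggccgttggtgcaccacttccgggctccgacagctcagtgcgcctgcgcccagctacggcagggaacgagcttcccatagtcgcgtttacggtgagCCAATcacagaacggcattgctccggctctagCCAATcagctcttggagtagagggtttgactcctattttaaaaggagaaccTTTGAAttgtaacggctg
Cdc20, chr4:118437294-118437593, minus strand: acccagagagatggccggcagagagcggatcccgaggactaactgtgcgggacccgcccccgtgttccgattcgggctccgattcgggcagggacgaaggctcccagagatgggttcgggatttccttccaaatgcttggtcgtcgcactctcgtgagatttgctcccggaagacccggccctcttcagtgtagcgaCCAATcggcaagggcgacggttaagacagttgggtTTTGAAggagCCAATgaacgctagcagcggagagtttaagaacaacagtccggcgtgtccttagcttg
Cenpa, chr5:30666636-30666935, plus strand: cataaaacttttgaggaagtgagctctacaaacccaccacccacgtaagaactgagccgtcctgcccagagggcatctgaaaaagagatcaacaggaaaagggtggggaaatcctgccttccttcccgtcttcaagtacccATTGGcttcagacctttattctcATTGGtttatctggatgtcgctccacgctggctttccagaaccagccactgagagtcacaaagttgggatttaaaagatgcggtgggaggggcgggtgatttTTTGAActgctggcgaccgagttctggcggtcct

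The hexamer lay close to the start in most of these windows. Cdk1 carried it 71 and 15 bases before the start, and Cdc20 carried it 18 bases before. Plk1, Aurka and Cenpa carried it 30, 32 and 16 bases past the annotated start. Mki67 carried it farther out, 116 and 98 bases before the start. No CHR hexamer shared a base with a CCAAT box in the 6 windows.

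RefSeq windows were matched for 34 of the 41 members, with 36 windows because Ect2 and Prc1 had a pair each. Ccna2, Cdc25c, Foxm1, Aurkb, Tpx2, Dlgap5 and Kif20a were not matched. A CHR hexamer stood in the last 100 bases of 28 of the 36 windows (77.8%), against 5.31% of all 32851 windows of this length. A CCAAT box stood anywhere in the 300 bases of 77.8% of member windows, against 37.4% of all windows. Both together were found in 69.4% of member windows and 2.24% of all windows. These matches describe letters and are not evidence of binding.

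**Figure D1:**
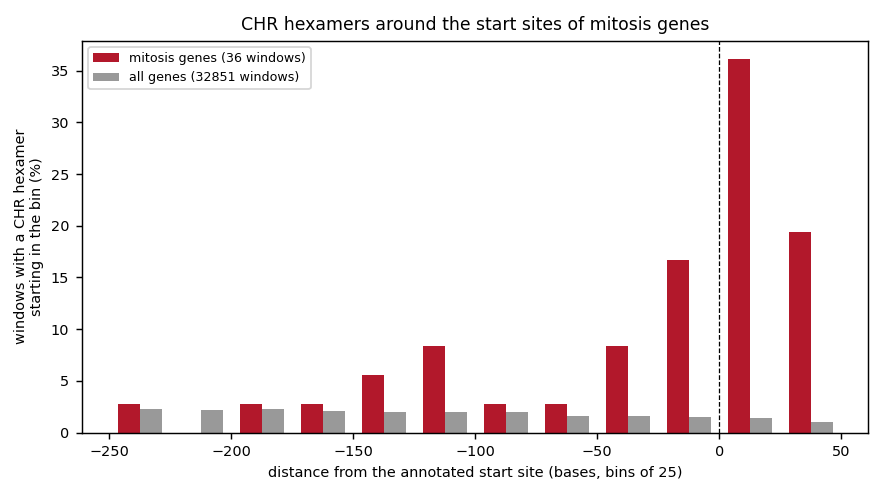
Share of promoter windows with a CHR hexamer (TTTGAA or TTCGAA, either strand) starting in each bin of 25 bases, by distance from the annotated start, for the 36 windows of mitosis genes (red) and for all 32851 windows (grey). The mitosis genes reach 36.1% in the bin just after the start, where all windows hold 1.43%.

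The libraries held 17.3 to 37.6 M (1e+06) reads by the step between low values. Fibroblast markers were present throughout: all 7 of Col1a1, Col1a2, Pdgfra, Pdgfrb, Thy1, Dcn and Vim exceeded 1 CPM in every group. Their levels were not alike across groups. Dcn averaged 731 CPM with doxorubicin against 166 CPM in its vehicle, and 538 CPM with peroxide against 17.6 CPM in its vehicle. Vim averaged 1783 against 889 CPM for doxorubicin and 826 against 1455 CPM for peroxide. Summed epithelial markers stayed between 0 and 1.16 CPM over 5 genes. Summed endothelial markers (4 genes, 1 of them above 1 CPM) were 34.0 to 44.4 CPM with doxorubicin against 12.5 to 16.1 CPM in its vehicle, and 22.1 to 27.3 CPM with peroxide against 5.57 to 9.19 CPM in its vehicle. Summed leukocyte markers (5 genes) were 27.1 to 32.4 CPM with doxorubicin against 11.1 to 17.7 CPM in its vehicle, and 23.1 to 26.1 CPM with peroxide against 16.3 to 17.4 CPM in its vehicle. Summed adipocyte markers (4 genes) were 1391 to 1481 CPM with doxorubicin against 2237 to 2441 CPM in its vehicle, and 2091 to 2194 CPM with peroxide against 977 to 1174 CPM in its vehicle. These sums rest on few genes. Lpl made up most of the adipocyte sum, with means of 1405 against 2271 CPM for doxorubicin and 2097 against 998 CPM for peroxide. Adipoq was higher with doxorubicin (3.20 against 1.20 CPM), and Fabp4 was lower with peroxide (27.5 against 50.6 CPM). Tek was the endothelial marker above 1 CPM. Of the leukocyte markers, Csf1r was lower with peroxide (9.05 against 13.8 CPM), and Ptprc and Adgre1 stayed below 1 CPM. The part of the markers in the results was not tested. Doxorubicin replicate 1, doxorubicin vehicle replicate 3 and peroxide replicate 2 stood apart from their groups for some members and were left out together in an alternative fit. Those 3 libraries were picked from the values of these same members, so lower p-values without them are not independent support. Peroxide vehicle replicate 1 was high for 5 members and was left out on its own.

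Mitosis genes fell with both treatments. With doxorubicin 36 of the 41 fell and 0 rose (limma on log2(CPM + 1), adjusted p below 0.05 over all tested genes), where 27.8% of all tested genes fell. With peroxide all 41 fell, where 23.4% of all tested genes fell. In either direction, 49.9% of all tested genes changed with doxorubicin and 50.7% with peroxide. The median difference was -1.50 on the log2 scale with doxorubicin and -1.49 with peroxide, against medians of -0.03 and -0.01 over all tested genes. CPM is the number of reads of a gene per 1e+06 reads assigned to genes. In bulk RNA, fewer dividing cells and less RNA of these genes per cell cannot be told apart.

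Summed over the 41 genes, doxorubicin-treated cells had 1157 ± 15.7 CPM, against 3284 ± 62.9 CPM in their vehicle cells (SD, n = 3 each). Peroxide-treated cells had 1945 ± 45.0 CPM, against 5041 ± 139.6 CPM in their vehicle cells (SD, n = 3 each). The treated sums were 35.2% and 38.6% of their vehicle sums. Gene by gene, the treated mean was a median of 34.2% of its vehicle mean with doxorubicin, with a range of 21.4% to 112%. With peroxide the median was 35.0%, with a range of 13.0% to 67.9%. The 3 doxorubicin libraries lay below all 3 of their vehicle libraries for 35 members, where this held for 33.6% of all tested genes. The same held for all 41 members with peroxide, where it held for 29.3% of all tested genes. Without the 3 libraries that stood apart, 36 members again fell with doxorubicin, with Plk1 gained and Cdc20 lost, and 41 fell with peroxide.

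**Figure D2:**
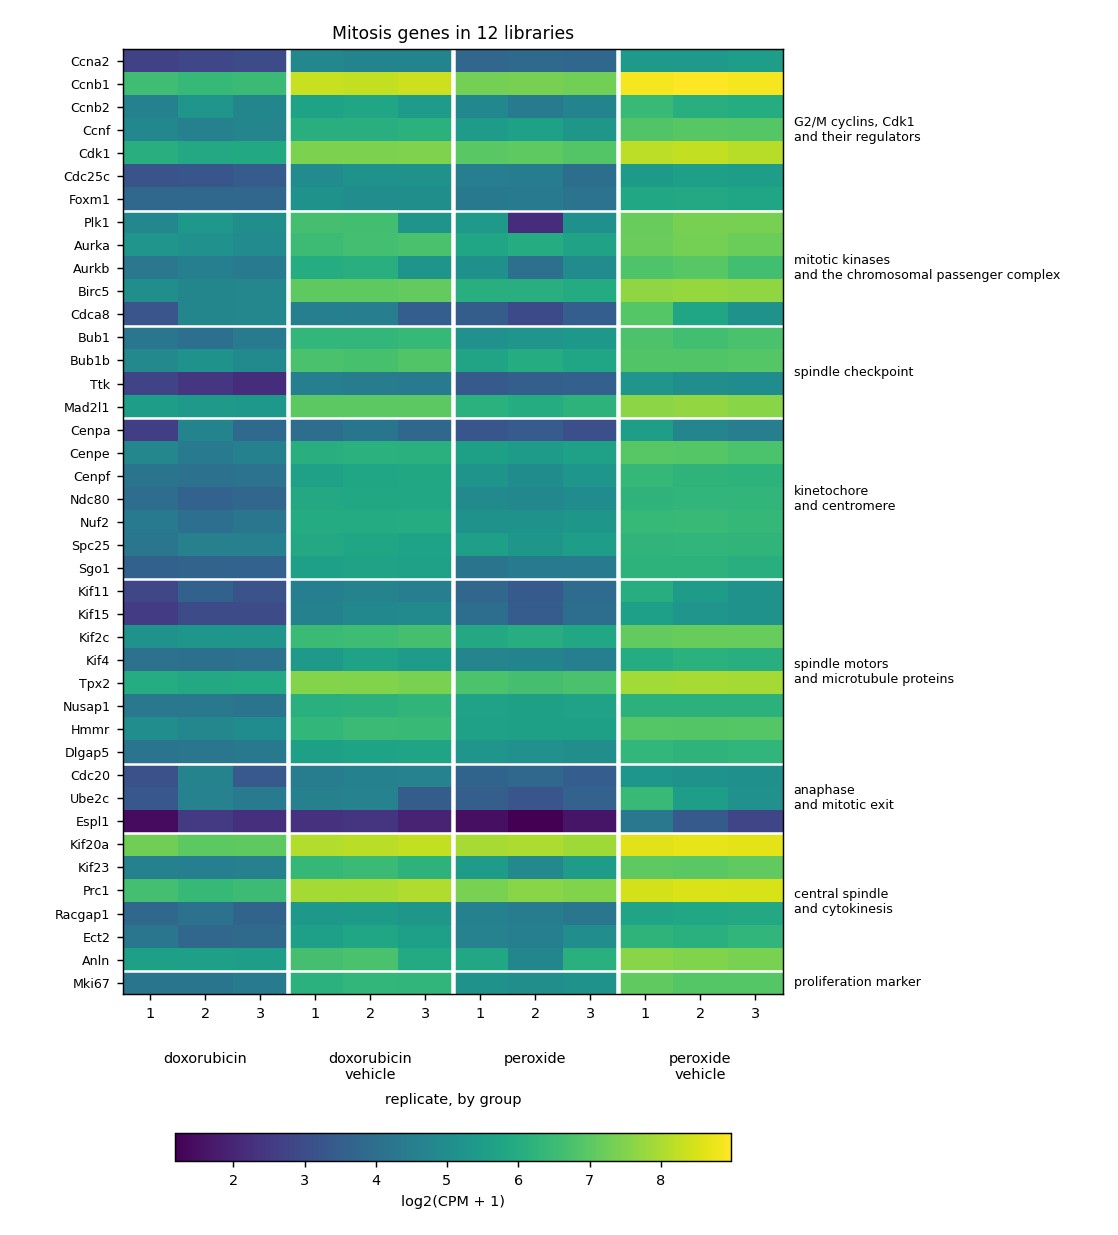
Expression of the 41 mitosis genes (rows, by role) in the 12 libraries (columns, replicates 1 to 3 of each group) as log2(CPM + 1); shades compare libraries within a row, since values are not divided by gene length. The treated columns are darker than their vehicle columns in most rows, with single libraries standing out for Plk1, Cdca8, Ube2c, Cenpa and Cdc20.

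The cyclins, Cdk1 and their regulators fell in 7 of 7 cases with each treatment, with medians of -1.48 for doxorubicin and -1.53 for peroxide on the log2 scale. Values below are in the order of replicates 1, 2 and 3. Ccnb1, the cyclin B1 gene on chromosome 13, had 95.6, 84.0 and 89.2 CPM with doxorubicin, against 319.9, 308 and 331 CPM in its vehicle. With peroxide it had 162, 166 and 160.4 CPM, against 466, 504 and 464 CPM in its vehicle. Neither pair of groups overlapped, and the differences were -1.82 ± 0.06 and -1.55 ± 0.06 on the log2 scale (SE; limma adjusted p = 3.22e-09 and 1.52e-08). Of the 50-base windows of its transcripts, 42.1% also occur in other genes, mainly the pseudogene Ccnb1-ps, which makes its level less certain.

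Cdk1, the kinase that cyclin B activates, had 66.6, 58.6 and 59.6 CPM with doxorubicin, against 173, 172 and 175 CPM in its vehicle. In the peroxide experiment its treated cells had 127, 132 and 117 CPM, against 294, 309 and 281 CPM in its vehicle. All treated libraries lay below all of their vehicle libraries, by -1.48 ± 0.07 with doxorubicin and -1.23 ± 0.07 with peroxide (log2, SE; limma adjusted p = 2.84e-08 and 1.33e-07). Cdc25c, the phosphatase that activates Cdk1, had 8.02, 8.65 and 9.98 CPM with doxorubicin, against 29.9, 35.8 and 35.1 CPM in its vehicle. Peroxide-treated cells had 21.7, 21.2 and 15.0 CPM, against 42.6, 47.0 and 45.5 CPM in its vehicle. Again no treated library reached its vehicle group.

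Cyclin A2, encoded by Ccna2 and active from S phase into mitosis, was at 5.59, 6.12 and 6.73 CPM with doxorubicin, against 27.2, 24.9 and 24.8 CPM in its vehicle. With peroxide Ccna2 was at 12.6, 13.7 and 13.0 CPM, against 41.4, 41.6 and 44.6 CPM in its vehicle. The groups were fully apart, with differences of -1.90 and -1.62 on the log2 scale. Ccnb2, the other B-type cyclin, was at 23.3, 36.8 and 26.3 CPM with doxorubicin, against 50.8, 53.2 and 44.2 CPM in its vehicle. With peroxide Ccnb2 was at 27.3, 20.5 and 24.8 CPM, against 87.0, 67.0 and 63.0 CPM in its vehicle. Its doxorubicin difference of -0.78 ± 0.17 (log2, SE; limma adjusted p = 0.00347) was the smallest among the cyclins.

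Ccnf encodes cyclin F, which is a substrate receptor of an SCF ubiquitin ligase. It had 27.2, 23.3 and 25.6 CPM with doxorubicin, against 67.0, 66.5 and 70.9 CPM in its vehicle, and 42.8, 48.8 and 38.5 CPM with peroxide, against 116, 123 and 121 CPM in its vehicle. Foxm1, a transcription factor of G2/M genes, had 12.8, 13.0 and 12.6 CPM with doxorubicin, against 35.4, 30.8 and 32.8 CPM in its vehicle. With peroxide Foxm1 had 19.3, 20.1 and 16.6 CPM, against 55.4, 58.2 and 53.3 CPM in its vehicle. The groups of both genes were fully apart, and Foxm1 fell by 1.30 ± 0.09 with doxorubicin and by 1.53 ± 0.09 with peroxide on the log2 scale (SE; limma adjusted p = 4.86e-07 and 1.51e-07).

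Among the mitotic kinases and the chromosomal passenger complex, 3 of 5 members fell with doxorubicin and 5 of 5 with peroxide. Birc5, which encodes the passenger protein survivin, had the most negative doxorubicin difference of all members, at -2.19 ± 0.08 on the log2 scale (SE; limma adjusted p = 3.66e-09). It had 32.4, 26.1 and 26.9 CPM with doxorubicin, against 131, 130.4 and 137 CPM in its vehicle. With peroxide Birc5 had 66.2, 65.8 and 62.8 CPM, against 203, 213 and 205 CPM in its vehicle, a difference of -1.66 ± 0.08. The kinase gene Aurka, which acts at spindle poles, had 37.3, 34.0 and 29.6 CPM with doxorubicin, against 91.9, 99.8 and 105 CPM in its vehicle. With peroxide Aurka had 53.6, 63.4 and 50.1 CPM, against 146, 162 and 150.3 CPM in its vehicle. The libraries of neither gene overlapped between a treatment and its vehicle.

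Plk1, a kinase that acts from mitotic entry to cytokinesis, had 27.3, 39.9 and 31.5 CPM with doxorubicin, against 101, 97.0 and 36.4 CPM in its vehicle. With peroxide it had 40.2, 3.61 and 33.3 CPM, against 143, 165 and 167 CPM in its vehicle. Vehicle replicate 3 lay inside the range of the doxorubicin libraries, and peroxide replicate 2 was 11.1-fold below peroxide replicate 1. The doxorubicin difference of -1.10 ± 0.68 (log2, SE) was not called (limma adjusted p = 0.198). Leaving out peroxide replicate 2, which enters the shared estimate of the spread, gave an adjusted p of 0.014, and leaving out all 3 libraries that stood apart gave -1.45 with an adjusted p of 6.49e-06. Both settings took out peroxide replicate 2, which lay apart for Plk1 itself, so their lower p-values are not independent support. Array weights, which kept all 12 libraries, gave -1.40 (limma adjusted p = 0.00309). Those weights were estimated from these same libraries, and that fit stopped before full convergence. The peroxide difference of -3.09 ± 0.68 (limma adjusted p = 0.0029) was the most negative of all members. Without peroxide replicate 2 it was -2.08 (adjusted p = 0.000752). Of the 50-base windows of Plk1, 10.9% also occur in other genes, mainly Plk-ps1. Larger shares than this were found for Ube2c (17.8%), Kif4 (16.2%), Ccna2 (15.9%) and Cdc20 (11.6%), and for Ccnb1, Kif20a and Prc1.

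Aurkb, the kinase of the passenger complex, had 18.4, 22.5 and 20.7 CPM with doxorubicin, against 63.5, 68.3 and 36.1 CPM in its vehicle. After peroxide it had 32.9, 15.8 and 29.8 CPM, against 114, 123 and 97.0 CPM in its vehicle. The same vehicle replicate 3 and peroxide replicate 2 were low, but no treated library reached its vehicle group. Cdca8, which encodes borealin of the same complex, had 8.43, 26.4 and 26.7 CPM with doxorubicin, against 22.5, 21.7 and 10.5 CPM in its vehicle. Peroxide-treated cells had 10.1, 6.70 and 10.3 CPM, against 119, 53.6 and 35.5 CPM in its vehicle. The doxorubicin libraries of Cdca8 overlapped their vehicle libraries, and the difference of 0.07 ± 0.50 (log2, SE; -0.037 after upper-quartile rescaling) was not called (limma adjusted p = 0.913), and it was 0.25 without the 3 libraries that stood apart (adjusted p = 0.614). Without them Aurkb was at -1.57 with doxorubicin (adjusted p = 1.78e-06). With peroxide Cdca8 fell by 2.65 ± 0.50 (limma adjusted p = 0.001) without overlap.

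Of the spindle checkpoint members, 4 of 4 fell with each treatment, with medians of -1.91 for doxorubicin and -1.49 for peroxide on the log2 scale. These 4 genes are a chosen part of the checkpoint. Bub1, a kinase recruited to unattached kinetochores, had 17.8, 15.2 and 19.5 CPM with doxorubicin, against 80.2, 80.0 and 84.2 CPM in its vehicle. In the peroxide experiment it had 34.0, 37.1 and 39.7 CPM, against 109.7, 97.2 and 106 CPM in its vehicle. Bub1b, which encodes the APC/C inhibitor BubR1, had 27.8, 35.8 and 28.4 CPM with doxorubicin, against 106, 105 and 115 CPM in its vehicle. With peroxide Bub1b had 52.7, 63.0 and 53.5 CPM, against 116, 117 and 119 CPM in its vehicle. No treated library of either gene reached its vehicle group, and the vehicle groups of Bub1b differed by -0.11 on the log2 scale (limma adjusted p = 0.444). Ttk, the checkpoint kinase Mps1, averaged 4.61 ± 1.19 CPM with doxorubicin against 21.6 ± 0.842 CPM in its vehicle, and 10.4 ± 0.755 CPM with peroxide against 33.0 ± 3.31 CPM in its vehicle (SD, n = 3). Mad2l1, which encodes Mad2, averaged 41.7 ± 3.35 CPM with doxorubicin against 129 ± 0.918 CPM in its vehicle, and 69.1 ± 5.06 CPM with peroxide against 199 ± 8.92 CPM in its vehicle (SD, n = 3).

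Kinetochore and centromere genes fell in 6 of 7 cases with doxorubicin and 7 of 7 with peroxide. Ndc80, Nuf2 and Spc25 encode subunits of the complex that binds microtubules at the kinetochore. Ndc80 had 14.6, 11.5 and 12.4 CPM with doxorubicin, against 58.4, 56.4 and 57.5 CPM in its vehicle, and 29.0, 27.1 and 30.6 CPM with peroxide, against 75.3, 78.3 and 77.9 CPM in its vehicle. Nuf2 had 19.6, 15.2 and 18.1 CPM with doxorubicin, against 62.1, 62.5 and 62.8 CPM in its vehicle, and 35.4, 34.4 and 38.9 CPM with peroxide, against 84.0, 85.2 and 82.8 CPM in its vehicle. Spc25 had 18.02, 22.7 and 22.9 CPM with doxorubicin, against 58.4, 55.1 and 50.9 CPM in its vehicle, and 47.1, 38.3 and 45.0 CPM with peroxide, against 77.0, 78.1 and 77.0 CPM in its vehicle. No treated library of the 3 subunits reached its vehicle group, and Ndc80 was lowered most of them in each treatment (-2.08 and -1.39 on the log2 scale).

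Cenpf, a large protein of the outer kinetochore, had 17.2, 16.2 and 16.9 CPM with doxorubicin, against 48.6, 53.8 and 55.9 CPM in its vehicle, and 36.6, 30.1 and 37.9 CPM with peroxide, against 81.6, 75.5 and 74.1 CPM in its vehicle. Cenpe, the kinesin of chromosome congression, averaged 23.3 ± 3.35 CPM with doxorubicin against 69.6 ± 1.43 CPM in its vehicle, and 46.8 ± 3.11 CPM with peroxide against 117 ± 6.85 CPM in its vehicle (SD, n = 3). Sgo1, the protector of centromeric cohesin, averaged 11.5 ± 0.265 CPM with doxorubicin against 49.0 ± 1.54 CPM in its vehicle, and 19.2 ± 1.87 CPM with peroxide against 71.4 ± 3.62 CPM in its vehicle (SD, n = 3). These 3 genes were lower in every treated library than in any of its vehicle libraries. Cenpa, the histone H3 variant of centromeres, had 5.22, 25.2 and 13.4 CPM with doxorubicin, against 14.9, 17.4 and 12.8 CPM in its vehicle. With peroxide it had 8.66, 9.61 and 7.43 CPM, against 45.5, 25.8 and 22.1 CPM in its vehicle. The doxorubicin libraries lay on both sides of their vehicle range, and the difference of -0.26 ± 0.42 (log2, SE; limma adjusted p = 0.632) was not called, whereas the peroxide libraries lay fully below theirs. Without the 3 libraries that stood apart the doxorubicin difference of Cenpa was 0.18 (adjusted p = 0.656).

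Spindle motors and microtubule proteins fell in 8 of 8 cases with each treatment. Tpx2, which activates Aurora A on spindle microtubules, had 63.9, 58.0 and 61.1 CPM with doxorubicin, against 184, 182 and 169.7 CPM in its vehicle, and 109, 103 and 106 CPM with peroxide, against 238, 250.2 and 242 CPM in its vehicle. Nusap1, a microtubule-binding protein of the spindle, had 18.9, 19.0 and 17.0 CPM with doxorubicin, against 69.4, 71.7 and 76.5 CPM in its vehicle. With peroxide Nusap1 had 50.0, 48.0 and 49.9 CPM, against 72.7, 72.4 and 72.7 CPM in its vehicle. The vehicle groups of Nusap1 thus overlapped, and its peroxide libraries lay between the vehicle and the doxorubicin libraries. The other 6 were the kinesins Kif11, Kif15, Kif2c and Kif4 and the microtubule proteins Hmmr and Dlgap5, whose doxorubicin differences ran from -1.94 (Kif15) to -1.35 (Kif2c) and whose peroxide differences ran from -1.87 (Kif11) to -1.17 (Dlgap5) on the log2 scale.

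Of the 3 genes of anaphase and mitotic exit, 1 fell with doxorubicin (33.3%, against 27.8% of all tested genes) and 3 fell with peroxide. Cdc20, the activator of APC/C, had 7.64, 24.3 and 9.36 CPM with doxorubicin, against 21.2, 23.4 and 23.8 CPM in its vehicle, and 11.9, 12.7 and 10.5 CPM with peroxide, against 37.5, 34.8 and 33.1 CPM in its vehicle. Doxorubicin replicate 2 lay above its vehicle libraries while replicates 1 and 3 lay far below. The doxorubicin difference of -0.86 ± 0.30 (log2, SE; limma adjusted p = 0.0346) was -1.33 without doxorubicin replicate 2 and -0.56 without doxorubicin replicate 1 (adjusted p = 1.28e-05 and 0.121). The call was lost, too, when doxorubicin replicate 3 was left out (adjusted p = 0.124) and without vehicle replicate 1, 2 or 3 (adjusted p = 0.0602, 0.08 and 0.0835). Without the 3 libraries that stood apart it was -0.53 (adjusted p = 0.168), and separate fits of the experiments gave an adjusted p of 0.102.

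Ube2c, the ubiquitin-conjugating enzyme of APC/C, had 8.76, 23.9 and 19.7 CPM with doxorubicin, against 23.0, 24.0 and 10.1 CPM in its vehicle. After peroxide it had 10.6, 8.34 and 11.4 CPM, against 87.4, 44.7 and 33.8 CPM in its vehicle. Espl1, which encodes separase, the protease that cuts cohesin, had 1.68, 4.65 and 3.66 CPM with doxorubicin, against 3.85, 4.10 and 2.82 CPM in its vehicle. Peroxide-treated cells had 1.85, 1.27 and 2.06 CPM, against 18.9, 9.58 and 6.07 CPM in its vehicle. The doxorubicin libraries of both genes overlapped their vehicle libraries, and the differences of -0.13 ± 0.43 for Ube2c and -0.14 ± 0.35 for Espl1 (log2, SE) were not called (limma adjusted p = 0.814 and 0.762). Without the 3 libraries that stood apart they were -0.11 for Ube2c and 0.045 for Espl1 (adjusted p = 0.794 and 0.925). With peroxide both fell, by 2.24 ± 0.43 and 2.08 ± 0.35 on the log2 scale (limma adjusted p = 0.00115 and 0.000538), and neither overlapped its vehicle.

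Central spindle and cytokinesis genes fell in 6 of 6 cases with each treatment. Kif20a, a kinesin that brings the passenger complex to the central spindle, had 155, 128 and 130.2 CPM with doxorubicin, against 268, 290.1 and 306 CPM in its vehicle, and 249, 258 and 232 CPM with peroxide, against 396, 416 and 405 CPM in its vehicle. Prc1, which bundles antiparallel microtubules, had 100.5, 83.7 and 92.0 CPM with doxorubicin, against 244, 243 and 266 CPM in its vehicle, and 171, 192 and 179 CPM with peroxide, against 352, 371 and 366 CPM in its vehicle. With peroxide Kif20a kept more of its vehicle level than any other member of this role, at 60.7%. With doxorubicin it kept 47.9%, below the 52.0% of Anln. Of their 50-base windows, 31.2% for Kif20a and 26.6% for Prc1 also occur in neighbouring genes, Cdc23 and Rccd1.

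Anln, the actin-binding anillin of the contractile ring, had 47.8, 46.6 and 46.1 CPM with doxorubicin, against 103, 107 and 60.7 CPM in its vehicle, and 56.8, 25.9 and 68.9 CPM with peroxide, against 193, 179 and 170.2 CPM in its vehicle. No libraries overlapped, but vehicle replicate 3 and peroxide replicate 2 were again low. The doxorubicin difference of Anln, -0.89 ± 0.30 (log2, SE; limma adjusted p = 0.031), passed the threshold narrowly. It was not called when doxorubicin replicate 1, 2 or 3 was left out (adjusted p = 0.0541, 0.0714 and 0.0737), nor without vehicle replicate 1 or 2 (adjusted p = 0.0967 and 0.103). With no filter on low values the adjusted p was 0.0677 for Anln and 0.0734 for Cdc20, and without the 3 libraries that stood apart Anln was at -1.16 (adjusted p = 4.4e-06). Kif23 and Racgap1, which form centralspindlin, and the cytokinesis gene Ect2 fell by 1.50 to 1.76 on the log2 scale with doxorubicin and by 1.37 to 1.78 with peroxide. Mki67, the antigen that marks cycling cells, had 17.7, 17.5 and 20.0 CPM with doxorubicin, against 70.8, 80.1 and 78.8 CPM in its vehicle, and 35.7, 31.7 and 34.9 CPM with peroxide, against 133, 122 and 121 CPM in its vehicle. The 3 libraries of each group lay close together and no treated library reached its vehicle group.

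Per kilobase of exon, the members covered a wide range of levels. In the peroxide vehicle Ccnb1 was highest at 113 CPM per kb and Espl1 lowest at 1.32 CPM per kb. Members lay on 17 chromosomes, with 7 on chromosome 2.

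Replicates agreed for most members and not for others. In at least 1 group, 13 members differed by more than 1.5-fold between their highest and lowest library (31.7%), against 34.8% of the 9118 genes of like level. They were Anln, Aurkb, Ccnb2, Cdc20, Cdca8, Cenpa, Espl1, Kif11, Kif15, Kif23, Plk1, Ttk and Ube2c. All 28 others fell with both treatments, with medians of -1.57 and -1.34 on the log2 scale. Of the 13, 8 fell with doxorubicin and 13 with peroxide, with medians of -0.89 and -1.87. The split uses the spread of the same libraries that sets the SE of the test, so these counts are not independent of it.

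Within 3 of the groups, the same library lay farthest from the middle value of the 3 for every gene past that ratio. Peroxide replicate 2 was the lowest of its group for all 7 such genes, Plk1, Aurkb, Anln, Kif23, Kif15, Cdca8 and Espl1. Doxorubicin vehicle replicate 3 was the lowest for all 5, Plk1, Aurkb, Anln, Cdca8 and Ube2c, and peroxide vehicle replicate 1 was the highest for all 5, Cdca8, Ube2c, Cenpa, Espl1 and Kif11. The doxorubicin group was mixed over its 8 genes. Replicate 1 lay farthest out for 5, low for Cdca8, Ube2c, Cenpa and Espl1 and high for Ttk, and replicate 2 lay farthest out for 3, high for Cdc20, Kif11 and Ccnb2. Depth was 32.4 M reads in peroxide replicate 2, 19.5 M in doxorubicin vehicle replicate 3, 17.6 M in peroxide vehicle replicate 1, 21.5 M in doxorubicin replicate 1 and 37.6 M in doxorubicin replicate 2. Transcript GC had a median of 49.3% for the 13 genes and 46.1% for the other 28. Of the 13, 12 had a promoter window and 12 of those held a CHR hexamer in the last 100 bases, against 14 of 22 windowed genes among the other 28. The part of these measures in the spread was not tested.

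**Figure D3:**
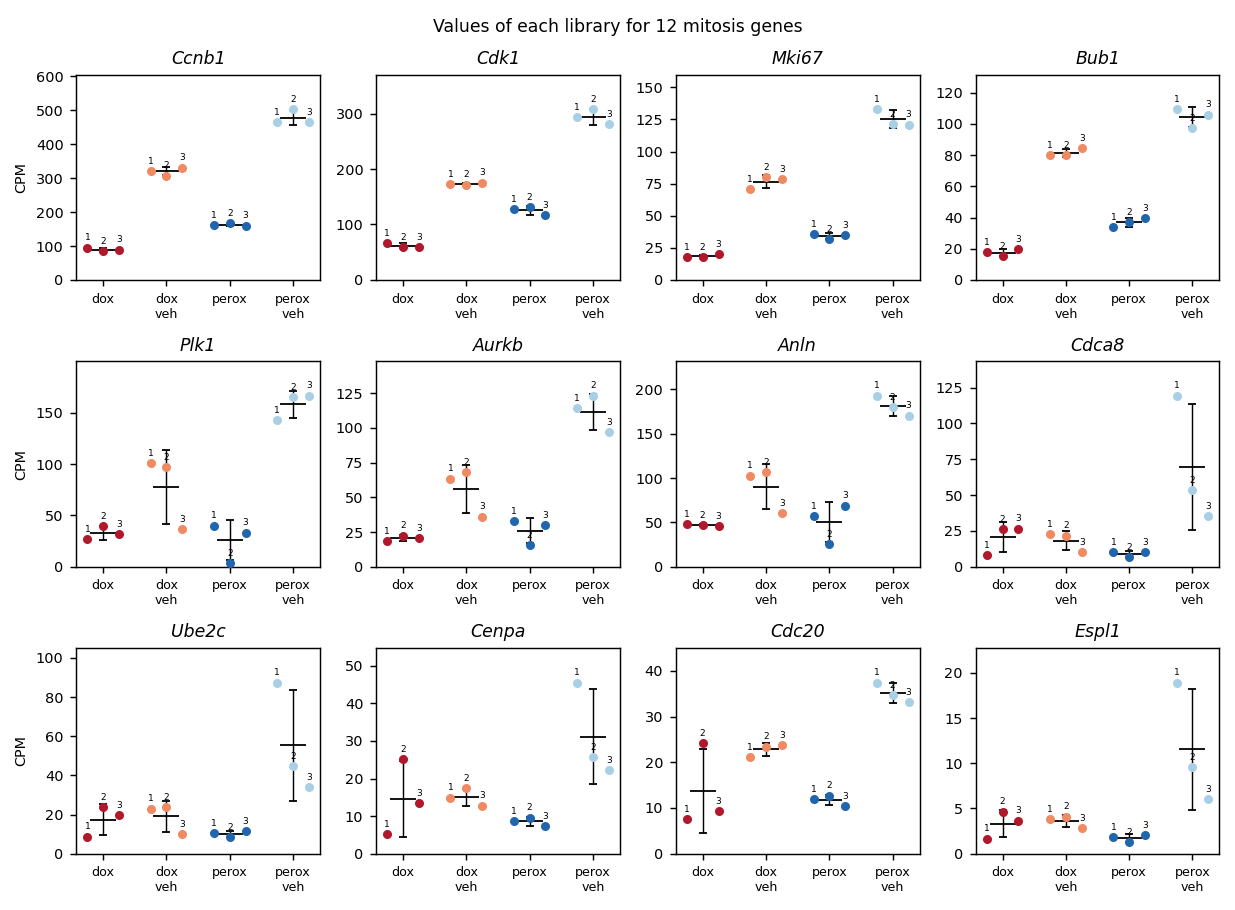
CPM of 12 mitosis genes in each library (points, numbered by replicate) with the mean and SD (bars, n = 3), for doxorubicin (dox), its vehicle (dox veh), peroxide (perox) and its vehicle (perox veh). The top row shows genes whose replicates lay close together, and the lower rows show genes for which single libraries stood apart, such as Plk1 at 3.61 CPM in peroxide replicate 2.

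The treatments were then set against each other through their differences from their own vehicles, which share no library. The doxorubicin effect minus the peroxide effect passed the test for 17 of 41 members (41.5%), where 33.6% of all tested genes did. It was negative for 13 members (31.7%, against 20.1% of all tested genes) and positive for 4 (9.76%, against 13.5%). Of all genes called here, 59.7% were lower as deposited and 48.0% after median-of-ratios rescaling, which left 8 members lower and 4 higher. Without peroxide vehicle replicate 1 the count of members was 11, with 9 lower and 2 higher.

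Nusap1 differed most on the negative side, by -1.38 ± 0.10 on the log2 scale (SE; limma adjusted p = 9.07e-06). It fell to 25.2% of its vehicle mean with doxorubicin and to 67.9% with peroxide. The checkpoint genes Bub1b and Bub1 were at -0.75 and -0.69, and the other 2 checkpoint members were not called. The kinetochore genes Ndc80 and Nuf2 were at -0.69 and -0.58. Birc5 (-0.53) was called as well. These 6 genes and the positive Cdca8 and Espl1 were called under all 22 alternative settings that gave a value.

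The remaining negative differences were smaller or less certain. They were Cdc25c (-0.61), Spc25 (-0.51), Cenpf (-0.47), Prc1 (-0.43), Kif20a (-0.34), Tpx2 (-0.34) and Ccnb1 (-0.28), with limma adjusted p from 0.0122 to 0.0436. Each lost its call under at least 1 alternative. After median-of-ratios rescaling 5 of them lost it: Ccnb1 (-0.20, adjusted p = 0.176), Kif20a (-0.27, adjusted p = 0.158), Cdc25c (-0.54, adjusted p = 0.0631), Tpx2 (-0.27, adjusted p = 0.0535) and Prc1 (-0.36, adjusted p = 0.0532). After upper-quartile rescaling Ccnb1 and Kif20a lost it too (-0.41 and -0.47, adjusted p = 0.0899 and 0.09). With no filter on low values Ccnb1, Kif20a and Cdc25c lost it (adjusted p = 0.0766, 0.0943 and 0.075), and with no trend Ccnb1 and Kif20a did (adjusted p = 0.0722 and 0.0691). Cdc25c lost it as well without the 3 libraries that stood apart (-0.44, adjusted p = 0.135). With the replicate block the adjusted p was 0.0661 for Ccnb1, 0.105 for Kif20a, 0.0524 for Cdc25c and 0.0666 for Spc25. Cdc25c lost it when any 1 library was left out among doxorubicin replicates 1 and 2, doxorubicin vehicle replicates 2 and 3, peroxide replicates 1 and 2 and the 3 peroxide vehicle replicates (adjusted p up to 0.0804). Kif20a lost it when 1 was left out among doxorubicin replicates 2 and 3, doxorubicin vehicle replicates 2 and 3, peroxide replicates 1 and 2 and the 3 peroxide vehicle replicates (adjusted p up to 0.104). Ccnb1 lost it when 1 was left out among doxorubicin replicates 2 and 3, doxorubicin vehicle replicates 1 and 3, peroxide replicates 1 and 2 and peroxide vehicle replicates 1 and 3 (adjusted p up to 0.0917). Spc25 lost it without doxorubicin vehicle replicate 1, peroxide replicate 1 or peroxide vehicle replicate 1 (adjusted p = 0.0556, 0.0547 and 0.0514), and Cenpf without doxorubicin vehicle replicate 3 or peroxide vehicle replicate 2 (adjusted p = 0.0547 and 0.0501).

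The 4 positive differences belonged to genes with wide replicates. Cdca8 differed by 2.72 ± 0.70, Ube2c by 2.10 ± 0.60, Espl1 by 1.94 ± 0.50 and Ccnb2 by 0.76 ± 0.25 on the log2 scale (SE; limma adjusted p = 0.014, 0.0223, 0.0144 and 0.0367). Cdca8, Ube2c and Espl1 were the 3 members whose doxorubicin differences were closest to 0. These 3 genes also had the most negative differences between the vehicle groups, at -1.76, -1.47 and -1.33 (doxorubicin vehicle minus peroxide vehicle, log2). That gap enters their differences of effects, and its share in them was not tested. Their peroxide vehicle replicate 1 was also 2.59-fold to 3.36-fold above the lowest replicate of that group. Ube2c lost its call without that library (adjusted p = 0.0509) and without doxorubicin replicate 2 or 3 (adjusted p = 0.0547 and 0.0544). With no filter on low values the adjusted p was 0.0537 for Ube2c and 0.0817 for Ccnb2. Ccnb2 lost its call when 1 was left out among doxorubicin replicates 2 and 3, doxorubicin vehicle replicates 1 and 3, peroxide replicates 2 and 3 and peroxide vehicle replicates 1 and 2 (adjusted p up to 0.086).

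**Figure D4:**
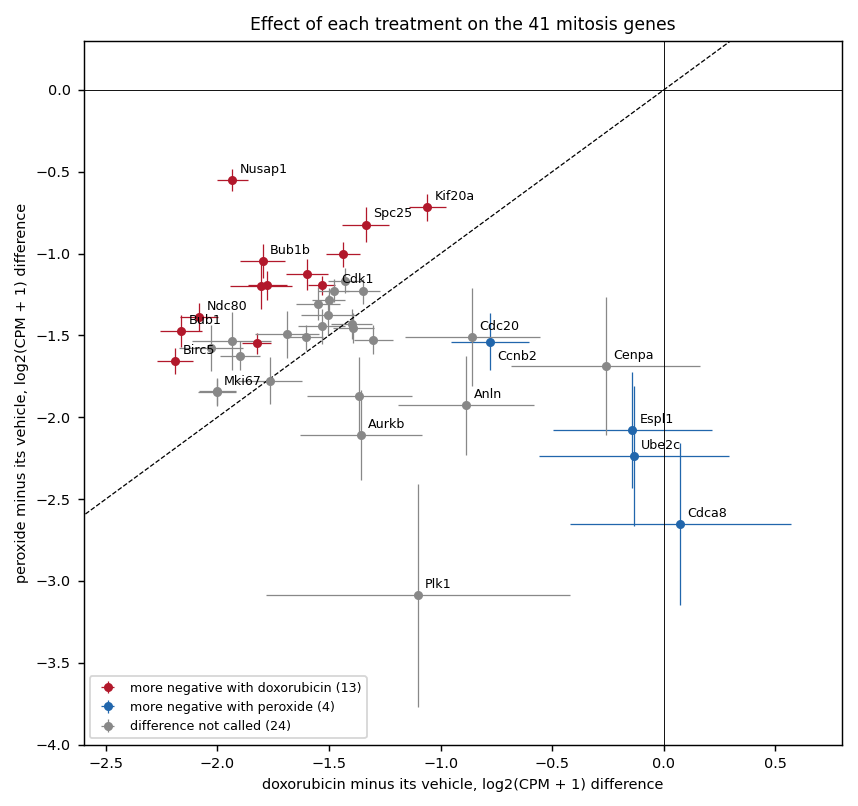
Difference of each of the 41 mitosis genes with doxorubicin (horizontal axis) and with peroxide (vertical axis), each against its own vehicle on the log2(CPM + 1) scale, with SE bars; the dashed line marks equal differences. Nusap1 lies farthest above the line, while Cdca8, Ube2c and Espl1 lie near 0 for doxorubicin and at -2.65 to -2.08 for peroxide, with wide bars.

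The vehicle groups were not alike. The doxorubicin vehicle (day 7) was lower than the peroxide vehicle (day 6) for 36 of 41 members, where 12.9% of all tested genes were lower, and 0 members were higher. The median difference was -0.59 on the log2 scale, against -0.02 over all tested genes, and the libraries did not overlap for 40 members (26.3% of all tested genes). The smallest p-values belonged to Cdk1 (-0.76), Ccnb1 (-0.58), Ccnf (-0.81), Mki67 (-0.70) and Foxm1 (-0.74). The most negative differences were those of Cdca8 (-1.76), Ube2c (-1.47) and Espl1 (-1.33). Nusap1 (-0.00), Bub1b (-0.11), Plk1, Cdc20 and Cenpa were not called. Day, experiment and handling cannot be told apart between the vehicle groups.

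The summed level of the 41 genes was lowest in the doxorubicin-treated cells. The doxorubicin mean was below the peroxide mean for 34 of 41 members, and the libraries did not overlap for 31 of them, where this held for 26.8% of all tested genes. The median doxorubicin level was 57.6% of the peroxide level. The median doxorubicin vehicle level was 65.4% of the peroxide vehicle level. The treated groups differ in agent, dose and day, so no test was made between them.

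Lists of related genes, also chosen with earlier results of these data known, are given by their counts. They are to be read against all tested genes, of which 27.8% fell and 22.1% rose with doxorubicin. With peroxide 23.4% of all tested genes fell and 27.3% rose. Of 70 other mitotic genes, 53 fell and 4 rose with doxorubicin, and 65 fell and 2 rose with peroxide, with medians of -1.15 and -1.26 on the log2 scale. The most negative with doxorubicin were the spindle and kinetochore gene Ska1 (-2.06), the kinase gene Pbk (-2.01) and the kinase gene Melk (-1.91). With peroxide they were the APC/C inhibitor gene Fbxo5 (-2.62 ± 0.37), the Ndc80 complex gene Spc24 (-2.47 ± 0.39) and Ska1 (-2.47 ± 0.24, SE). Fbxo5 and Spc24 had wide replicates in the peroxide vehicle (31.6 ± 13.9 and 31.2 ± 14.3 CPM, SD, n = 3). Neither was called with doxorubicin (limma adjusted p = 0.141 and 0.75).

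Psrc1, which encodes a microtubule-associated protein, rose by 1.59 ± 0.11 with doxorubicin and by 0.87 ± 0.11 with peroxide (log2, SE; limma adjusted p = 3.97e-07 and 4.02e-05). It averaged 50.8 ± 4.74 CPM with doxorubicin against 16.1 ± 0.862 CPM in its vehicle, and 50.5 ± 6.52 CPM with peroxide against 27.0 ± 1.41 CPM in its vehicle (SD, n = 3). Pttg1, which encodes the separase inhibitor securin, rose by 0.42 with doxorubicin and by 0.73 with peroxide. Its doxorubicin call was lost after upper-quartile rescaling (adjusted p = 0.0911). Gtse1 and the kinase gene Nek6 rose with doxorubicin, by 0.46 and 0.41, and with peroxide their differences were -0.51 and 0.09.

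S phase genes fell in 26 of 32 cases with doxorubicin, where 1 rose, and in 31 of 32 with peroxide, with medians of -1.0 and -1.38 on the log2 scale. The gene that rose was Ccne1 (0.41), the cyclin of S phase entry, whose call was lost after upper-quartile rescaling (adjusted p = 0.0516). Of 12 genes of the DREAM and MuvB complexes, 5 fell (41.7%) and 0 rose with doxorubicin, and 6 fell and 2 rose (16.7%, below the 27.3% of all tested genes) with peroxide. Mybl2, which encodes B-Myb, was at -1.07 with doxorubicin and -1.65 with peroxide, and Rbl2, which encodes the repressor p130, rose by 0.73 ± 0.10 with peroxide (SE; limma adjusted p = 0.000112) and was at 0.01 with doxorubicin. Lin52 was the other gene that rose with peroxide (0.41), a call lost without peroxide replicate 3 or peroxide vehicle replicate 1 (adjusted p = 0.0525 and 0.0566).

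Of 15 APC/C genes, which encode its subunits and Fzr1, another activator, 4 fell (26.7%) and 2 rose (13.3%) with doxorubicin, and 5 fell (33.3%) and 2 rose (13.3%) with peroxide, with medians of -0.14 and -0.24. The share that fell with doxorubicin was near the 27.8% of all tested genes. The peroxide count of genes that fell was 3 without peroxide replicate 1 or 2 and 2 without peroxide vehicle replicate 1 or 2. A CHR hexamer stood in the last 100 bases of 43.3% of the windows of the other mitotic genes, 6.45% of those of S phase genes, 16.7% of those of DREAM and MuvB genes and 0% of those of APC/C genes. Among the members themselves, 21 of the 26 genes with such a hexamer fell with doxorubicin (median -1.46) and 26 of 26 with peroxide (median -1.50). The 8 members without it near the start, among them Mki67, Birc5 and Nusap1, all fell with both (medians -1.80 and -1.41). The 5 members not called with doxorubicin were all among the 13 with wide replicates. All 12 windowed genes of those 13 held the hexamer near the start. Hexamer and replicate spread thus overlap in this split, and their parts were not tested.

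**Figure D5:**
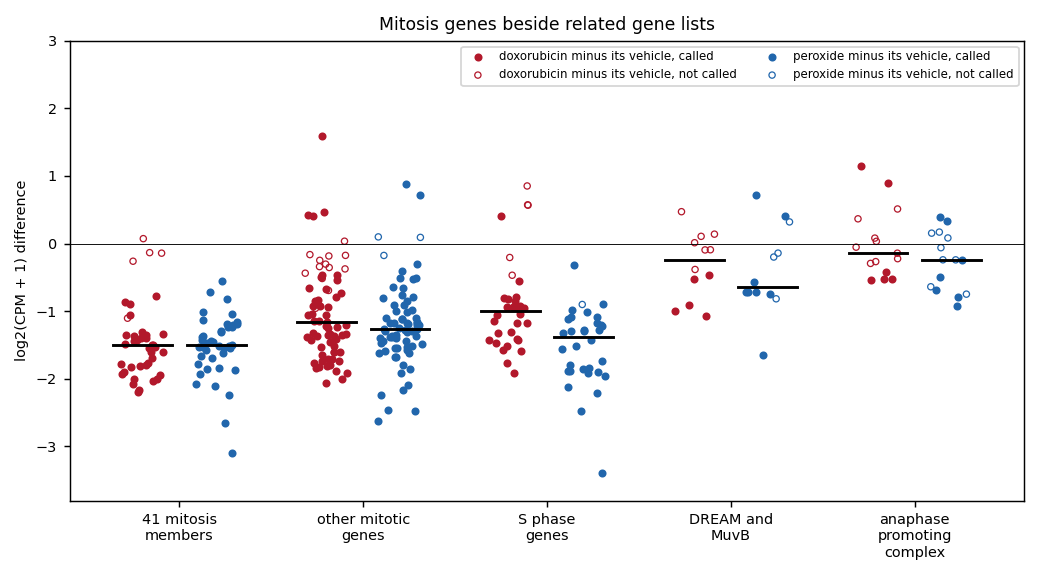
Difference of each gene from its vehicle on the log2(CPM + 1) scale with doxorubicin (red) and peroxide (blue), for the 41 members, other mitotic genes, S phase genes, DREAM and MuvB genes and APC/C genes; filled points passed the test and black lines are medians. The medians of the members lie at -1.50 and -1.49, and those of the APC/C genes at -0.14 and -0.24.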

How the data were processed

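RNA of the 12 cultures was sequenced on an Illumina NovaSeq instrument, per the labels' protocols. The authors deposited 1 table of CPM, reads per 1e+06 assigned to genes. The submitters' processing notes name bcl2fastq, DRAGEN and mm10. How reads were counted, and with what use of strand, is not given in the sources used here. Repeated lines (287 of 55774) carried identical values and were dropped. Depth was read from the value of 1 read (17.3 to 37.6 M reads). Up to 20 reads, 74.6 to 79.8% of values were whole (tolerance 0.001 read), so no count test was run. A floor of 3 reads, for counting error alone, was 0.0798 to 0.173 CPM.

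Genes with at least 1 CPM in 3 libraries (13280) were taken as log2(CPM + 1), which understates folds of low genes. A single limma 3.58.1 model with a trend (R 4.3.3) held 4 group means, with 8 residual degrees of freedom (median prior 3.07). Tests were two-sided with Benjamini-Hochberg adjustment over all tested genes, and a gene is called at an adjusted p below 0.05. The script was tested on simulated data. Positions and shared windows come from GENCODE M21 (GRCm38), promoters from RefSeq. The members and lists were chosen with earlier results of these data known. Libraries are printed for 1 leading gene of each role, the 3 most and 3 least negative members of each treatment, members called between treatments, and the 5 with the smallest p between vehicles. Bub1b, Anln and the other members were named beside them. The block for the replicate number, rescalings, pseudocounts, filters, weights and left-out libraries were alternatives.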

Additional observations from a re-analysis of the deposited data

Results flagged for a closer look

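These 17 members had a doxorubicin effect that differed from the peroxide effect by the test of the difference itself (limma, doxorubicin effect minus peroxide effect, log2). Of 41 members, 13 lay lower (31.7%, against 20.1% of all tested genes): Nusap1 (-1.38), Bub1b (-0.75), Ndc80 (-0.69), Bub1 (-0.69), Cdc25c (-0.61), Nuf2 (-0.58), Birc5 (-0.53), Spc25 (-0.51), Cenpf (-0.47), Prc1 (-0.43), Kif20a (-0.34), Tpx2 (-0.34) and Ccnb1 (-0.28). The 4 that lay higher (9.76%, below the 13.5% of all tested genes) were Ccnb2 (0.76), Espl1 (1.94), Ube2c (2.10) and Cdca8 (2.72). Both vehicle groups enter each difference, and day and experiment cannot be told apart from the agent.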

How the results depend on the processing

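The counts of 36 members lower with doxorubicin, 41 lower with peroxide and 36 lower between vehicles, and both medians, stayed within 1.5 times or 1 SD under every alternative that gave a value. With peroxide all 41 members were called under all 23 alternatives, and with doxorubicin 34 of the 36 were, the exceptions being Cdc20 and Anln. The 17 members that differed between treatments ranged from 11 (without peroxide vehicle replicate 1) to 20 with 1 library left out, and 8 of the 17 were called under all 22 alternatives. Same-numbered libraries showed no steady relation (correlations of their deviations -0.311, 0.194 and -0.277 with doxorubicin, 0.143, 0.0304 and -0.237 with peroxide). Doxorubicin replicate 1 and vehicle replicate 3, of unlike number, had 0.399. With 3 libraries a group, such correlations cannot decide whether the replicate numbers pair the cultures. The replicate block gave 36, 41, 13 and 35 called members in the 4 comparisons. Upper-quartile rescaling moved the median of all genes to -0.13 with doxorubicin and to -0.18 for the difference between treatments, from -0.03 and -0.07 as deposited.

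Differences with doxorubicin that changed sign belonged to members that were not called. Cdca8 (0.07) was -0.037 after upper-quartile rescaling, and with 1 library left out it ranged from -0.26 to 0.59. With 1 library left out, Cenpa (-0.26) ranged from -0.75 to 0.29, Ube2c (-0.13) from -0.52 to 0.27 and Espl1 (-0.14) from -0.37 to 0.17. Without the 3 libraries that stood apart, Cenpa was 0.18 and Espl1 was 0.045. The cause was not tested. Separate fits gave no value for the comparisons across experiments, and the fit with array weights stopped before full convergence. The fits rest on 3 libraries a group and on CPM rather than counts. Among the members, counting error was largest for Espl1, the lowest of them. The spread between Espl1 libraries was wider than counting error alone in every group. The part of depth in these changes was not tested.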
